A study of Mus musculus with 8 samples.

Results

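Heat shock proteins and chaperonins are the protein folding machines of the cell, and the present account follows the 80 genes of these families that could be measured in freshly isolated adipose precursors (APs) of mice after a brief high fat diet (HFD). Members were the probe sets annotated with exactly 1 gene symbol that was Tcp1 or began with Hspa, Hspb, Hspd, Hspe, Hsph, Hsp90, Dnaja, Dnajb, Dnajc or Cct, without predicted pseudogenes. Where a gene had several such probe sets, the one with the highest mean over the 8 arrays was used. The 80 genes stand among 19938 genes and 21789 probe sets with 1 symbol. Of the 80, 72 had 1 probe set of their own and 8 had several, and 45 encode J proteins.

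RNA came from male C57BL/6J wild type mice aged 7 to 8 weeks, and 3 mice were pooled for each array. The 4 groups of 2 arrays were viAPs (from perigonadal visceral fat) of mice on HFD for 3 days, viAPs of mice on standard diet (SD), scAPs (from subcutaneous fat) of mice on HFD, and scAPs of mice on SD. The arrays are named by the numbers 1 to 8 that the labels give them. APs were cells left after bead depletion of CD45 and CD31 positive cells and then held by SCA-1 beads, lysed without culture, so the RNA is that of a bead fraction and not of single sorted cells. In such pooled RNA, fewer cells of a type and less RNA per cell cannot be told apart.

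In all groups the precursor marker Pdgfra was high, at log2 levels of 11.01 to 11.56, and the leukocyte gene Ptprc was low, at 4.81 to 5.67. One library went against its label. The array labelled SD viAP replicate 4 had Tbx15, a gene of subcutaneous fat, at 9.77, against 4.70 on SD viAP replicate 3, and Tcf21, a gene of visceral fat, at 5.32, against 9.61. On these genes it resembled the scAP arrays (Tbx15 9.34 to 9.67, Tcf21 5.04 to 5.52). The calls of members in viAPs are therefore also given without it. The level bands, the counts of arrays without overlap, the methods' filter and the other gene lists are given only with it. The endothelial marker list of 12 genes averaged 7.59 and 7.54 in HFD scAPs, against 6.57 and 6.59 in SD scAPs, and 8 of its genes rose there. In viAPs it averaged 6.54 and 6.29 on HFD, against 6.54 and 6.53 on SD. The 7 measured mature adipocyte genes averaged 5.52 and 5.57 in HFD viAPs, against 5.97 and 6.39 in SD viAPs, and 5.86 and 5.85 in HFD scAPs, against 6.26 and 6.26 in SD scAPs. The part of these cells in the results was not tested.

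Chaperones bind unfolded stretches of other proteins and release them for folding, mostly in cycles of ATP binding and hydrolysis. HSP70 proteins take a client handed over by a J protein, which speeds up ATP hydrolysis, and an exchange factor such as an HSP110 then resets the cycle. HSP90 acts late, on nearly folded kinases and receptors. The chaperonins, CCT (also called TRiC) in the cytosol and HSP60 with HSP10 in mitochondria, enclose a client in a chamber, and CCT is best known for folding actin and tubulin. Small heat shock proteins hold unfolded proteins without ATP. Some of these genes are kept on in all cells. Others are turned on by the factor HSF1 through heat shock elements in their promoters, or, in the endoplasmic reticulum (ER), by the unfolded protein response through ER stress response elements.

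The RefSeq promoter table (GRCm38.p6, 250 bases before to 50 bases after a start site) held 66 of the 80 genes, with 85 promoters. A full heat shock element, searched on both strands as the units GAA, TTC and GAA with NN between neighbours, was found in 4 of the 66 genes (Dnajb6, Hspd1, Hspe1 and Hsph1, 6.06%), against 0.662% of all 27025 genes in the table (0.603% of its 32851 promoters). Its shorter form of GAA, NN and TTC, which is contained in it and reads the same on both strands, was found in 15 of the 66 genes (22.7%), against 9.04% of all genes (7.86% of promoters). The ER stress response element, searched on both strands as CCAAT and CCACG with 9 bases of any kind between them, was found in 3 of the 66 genes (Hspa5, Hsp90b1 and Dnajc3, 4.55%), against 0.137% of all genes (0.119% of promoters). These are matches of letters and were not tested for binding. Sequences of 6 of these genes are shown here because their values are given in full below, with the matching bases of the full heat shock element or the ER element in capitals. Hspd1, for HSP60, and Hspe1, for HSP10, are transcribed away from each other, and the 215 bases between their starts (chr1:55087933-55088147, plus strand) are the promoter of both. In them 1 match on either strand overlaps, at 72 to 89 bases before the Hspe1 start. The Hsph1 match lies after the start site, and only that site is shown (chr5:149636283-149636305, minus strand). The 3 ER promoters run up to the base before the start site of Hspa5 (chr2:34771940-34772089, plus strand), Hsp90b1 (chr10:86705445-86705694, minus strand) and Dnajc3 (chr14:118937782-118937931, plus strand). Hsp90b1 holds 2 matches, 1 in either orientation.
Hspd1-Hspe1: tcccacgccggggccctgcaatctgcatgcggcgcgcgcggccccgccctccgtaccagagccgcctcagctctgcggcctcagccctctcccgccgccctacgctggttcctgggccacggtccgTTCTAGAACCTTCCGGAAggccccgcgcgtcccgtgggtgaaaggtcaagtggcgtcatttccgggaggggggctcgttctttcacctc
Hsph1: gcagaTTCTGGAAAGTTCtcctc
Hspa5: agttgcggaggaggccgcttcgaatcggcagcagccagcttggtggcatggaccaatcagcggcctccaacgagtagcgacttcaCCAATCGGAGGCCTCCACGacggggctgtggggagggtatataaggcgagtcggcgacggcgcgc
Hsp90b1: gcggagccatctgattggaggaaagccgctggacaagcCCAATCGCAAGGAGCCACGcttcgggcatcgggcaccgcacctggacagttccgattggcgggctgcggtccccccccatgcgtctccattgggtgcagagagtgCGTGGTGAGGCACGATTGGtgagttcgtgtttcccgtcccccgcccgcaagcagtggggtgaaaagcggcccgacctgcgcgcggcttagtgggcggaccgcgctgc
Dnajc3: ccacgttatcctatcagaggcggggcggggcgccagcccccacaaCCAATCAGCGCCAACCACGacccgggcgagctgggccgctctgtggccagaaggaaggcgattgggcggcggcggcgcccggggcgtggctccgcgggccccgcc

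Over all probe sets with 1 symbol, the change with diet depended on the probe set's intensity. Between HFD and SD viAPs the median change of all probe sets was -0.18 at mean log2 levels of 3 to 5, 0.23 at 7 to 8, and 0.43 at 9 to 10. In scAPs it was -0.08, 0.13 and 0.27 in the same bands. The members' changes are therefore read against probe sets of like level. At levels of 9 to 10 the 6 members stood at 0.87 in viAPs and at 0.54 in scAPs, again as medians. The 13 members at 7 to 8 had medians of 0.27 in viAPs and 0.07 in scAPs, against 0.23 and 0.13 for all probe sets there, and 6 of the 13 lay above that median in scAPs. The 18 members at 8 to 9 had medians of 0.59 in viAPs and 0.45 in scAPs, against 0.40 and 0.24 for all probe sets there. The 7 members at 10 or more had medians of 0.48 in viAPs and 0.58 in scAPs, against 0.31 and 0.18. The 10 members at 3 to 5 had medians of -0.15 in viAPs and -0.16 in scAPs. The 26 members at 5 to 7 had medians of 0.03 in viAPs and 0.01 in scAPs, against -0.10 and -0.05 for all probe sets there, and 21 of the 26 lay above that median in viAPs and 15 in scAPs.

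**Figure D1:**
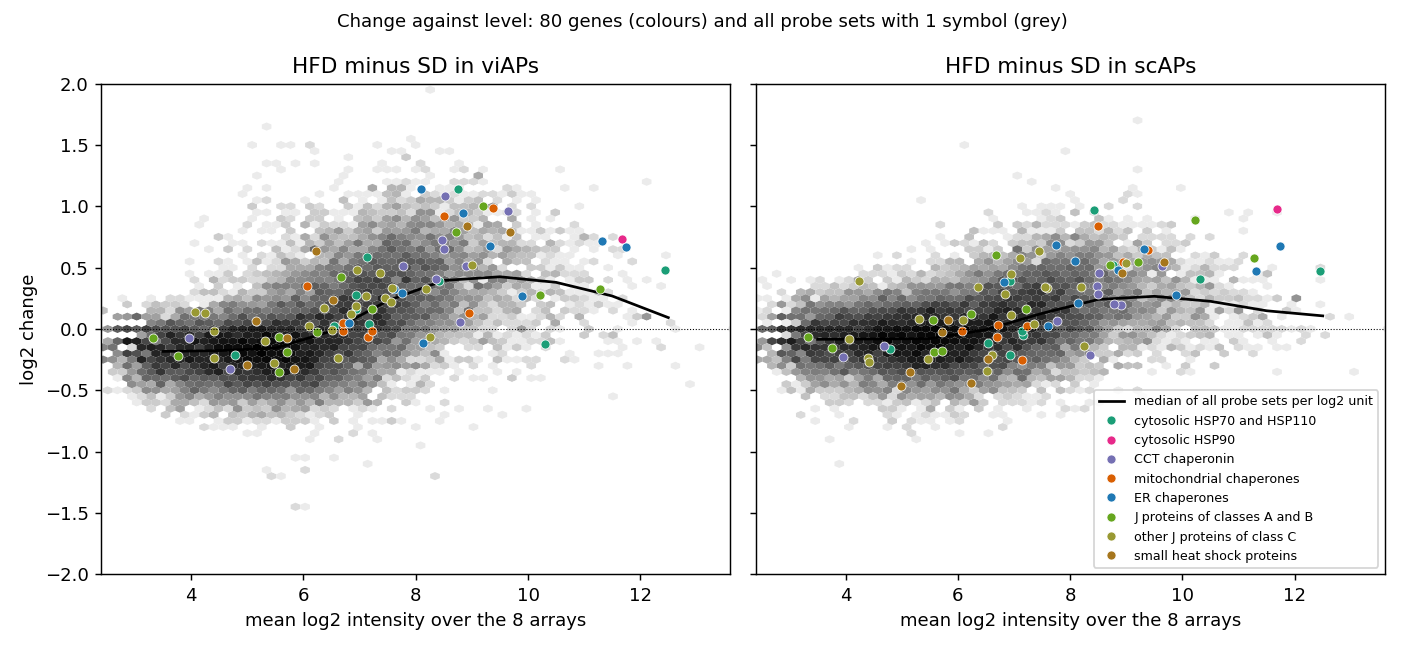
Log2 change between HFD and SD (y axis) against the mean log2 intensity over the 8 arrays (x axis), in viAPs (left) and scAPs (right). Coloured points are the 80 chaperone genes by role, grey shading is the density of all 21789 probe sets with 1 symbol with the few beyond the axis limits not drawn, and the black line is their median per log2 unit. Members at levels above 8 lie mostly above the line in both panels. Of the 26 members at levels of 5 to 7, 21 lay above the median of that band in viAPs and 15 in scAPs.

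In viAPs, 14 of the 80 genes rose on HFD and 0 fell, by 1.43-fold to 2.2-fold. They were distributed over 7 of the 8 roles: Hspa4 and Hsp90aa1 of the cytosol, Cct2, Cct7 and Cct8 of the CCT ring, Hspa9 and Hspd1 of mitochondria, Hspa5, Hsp90b1, Hspa13 and Dnajc10 of the ER, the J proteins Dnaja2 and Dnajb4, and the small heat shock protein Hspb8. This was 17.5% of the members, against a background of 8.45% of all probe sets that rose and 1.95% that fell (limma, adjusted p under 0.05 over all 21789 probe sets). With each array centred on its median, 21 members and 14.4% of all probe sets rose and 0.822% fell. Among the 44 members with a mean log2 level above 7 it was 31.8%, against 21.2% of all such probe sets. At 2-fold or more 4 members were called (Hspa4, Hspa13, Cct8 and Dnajb4), against 2.2% of all probe sets. This count rests on the brightest probe set of each gene. A second probe set of Hspd1 passed 2-fold, with a log2 change of 1.69 (limma adjusted p = 0.00485). Within the methods' own filter, which keeps the more variable probe sets, 18 of 31 members (58.1%) rose, against 60.5% of all probe sets, so that there the share of members lay near the background. Both HFD arrays were above both SD arrays for 40 members, against 28.9% of all probe sets, and below both for 9, against 31.2%. The median change over all 80 was 0.23, against -0.05 over all probe sets, and over those above a level of 7 it was 0.47, against 0.31.

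With all arrays, 29 members had an unadjusted p under 0.05 in viAPs (36.2%, against 29.4% of all probe sets). Without SD viAP replicate 4, 0 members were called in viAPs by limma, as were few probe sets at all (0.909% higher and 0.0964% lower). The changes of the 14 genes were then 0.53 to 1.18 and their adjusted p-values in limma 0.052 to 0.227. The median change over the 80 was 0.17. The count of members was 0 as well without HFD viAP replicate 5, where 0 of all probe sets were called, and without HFD viAP replicate 6, where 3 were.

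In scAPs, 2 of the 80 genes rose on HFD, Hsp90aa1 and the ER gene Dnajc1, and 0 fell (2.5% of members, against 1.06% of all probe sets that rose and 0.11% that fell, limma). With any 1 of the 8 arrays left out neither was called, and at most 33 of all probe sets were. Unadjusted, 29 members had a p under 0.05 (36.2%, against 16.7% of all probe sets). Both HFD arrays were above both SD arrays for 38 members, against 21.7% of all probe sets, and below both for 11, against 18.8%. The median change was 0.20 over all members, against -0.00 over all probe sets, and 0.47, against 0.18, above a level of 7, where both calls lay (2 of 44, against 2.76% of such probe sets). Within the methods' filter 8 of 31 members rose (25.8%, against 20% of all probe sets): Hsp90aa1, Dnajc1, Hspa5, Hspa9, Hspd1, Hsph1, Dnajb1 and Dnajc25.

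Averaged over both depots, 26 genes rose and 1 fell (32.5% and 1.25% of members, against 12.1% and 4.96% of all probe sets, limma). With each array centred on its median, 36 rose and 0 fell, against 18.9% and 1.92%. Among members above a level of 7 it was 24 of 44 (54.5%, against 30.6%). No member reached 2-fold in this average. All 4 HFD arrays lay above all 4 SD arrays for 24 members, which was 30%, against 11% of all probe sets. Without SD viAP replicate 4, 16 of the 27 were called (against 8.34% of all probe sets that rose and 2.29% that fell), and Hspa8, Hsph1, Dnaja1, Dnajb4, Dnajc4, Dnajc10, Dnajc13, Dnajc14, Dnajc21, Hspb1 and Hspb3 were not. For 9 genes (Hsp90aa1, Cct2, Hspa9, Hspd1, Hspa13, Hspa5, Dnaja2, Dnajb5 and Hspb8) the call held whichever single array was left out. How many of all probe sets held in this way was not counted. The viAP and scAP comparisons share no array, but nothing says whether the visceral and subcutaneous pools came from different mice. In both comparisons 30 members were higher without overlap (37.5%), against 14.9% of all probe sets. This count was not repeated without SD viAP replicate 4. The change with level was seen in both depots, and 44 of the 80 members lie above a level of 7, against 6838 of 21789 probe sets. The shares without overlap, here and above, are over all levels and were not computed for probe sets of like level.

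**Figure D2:**
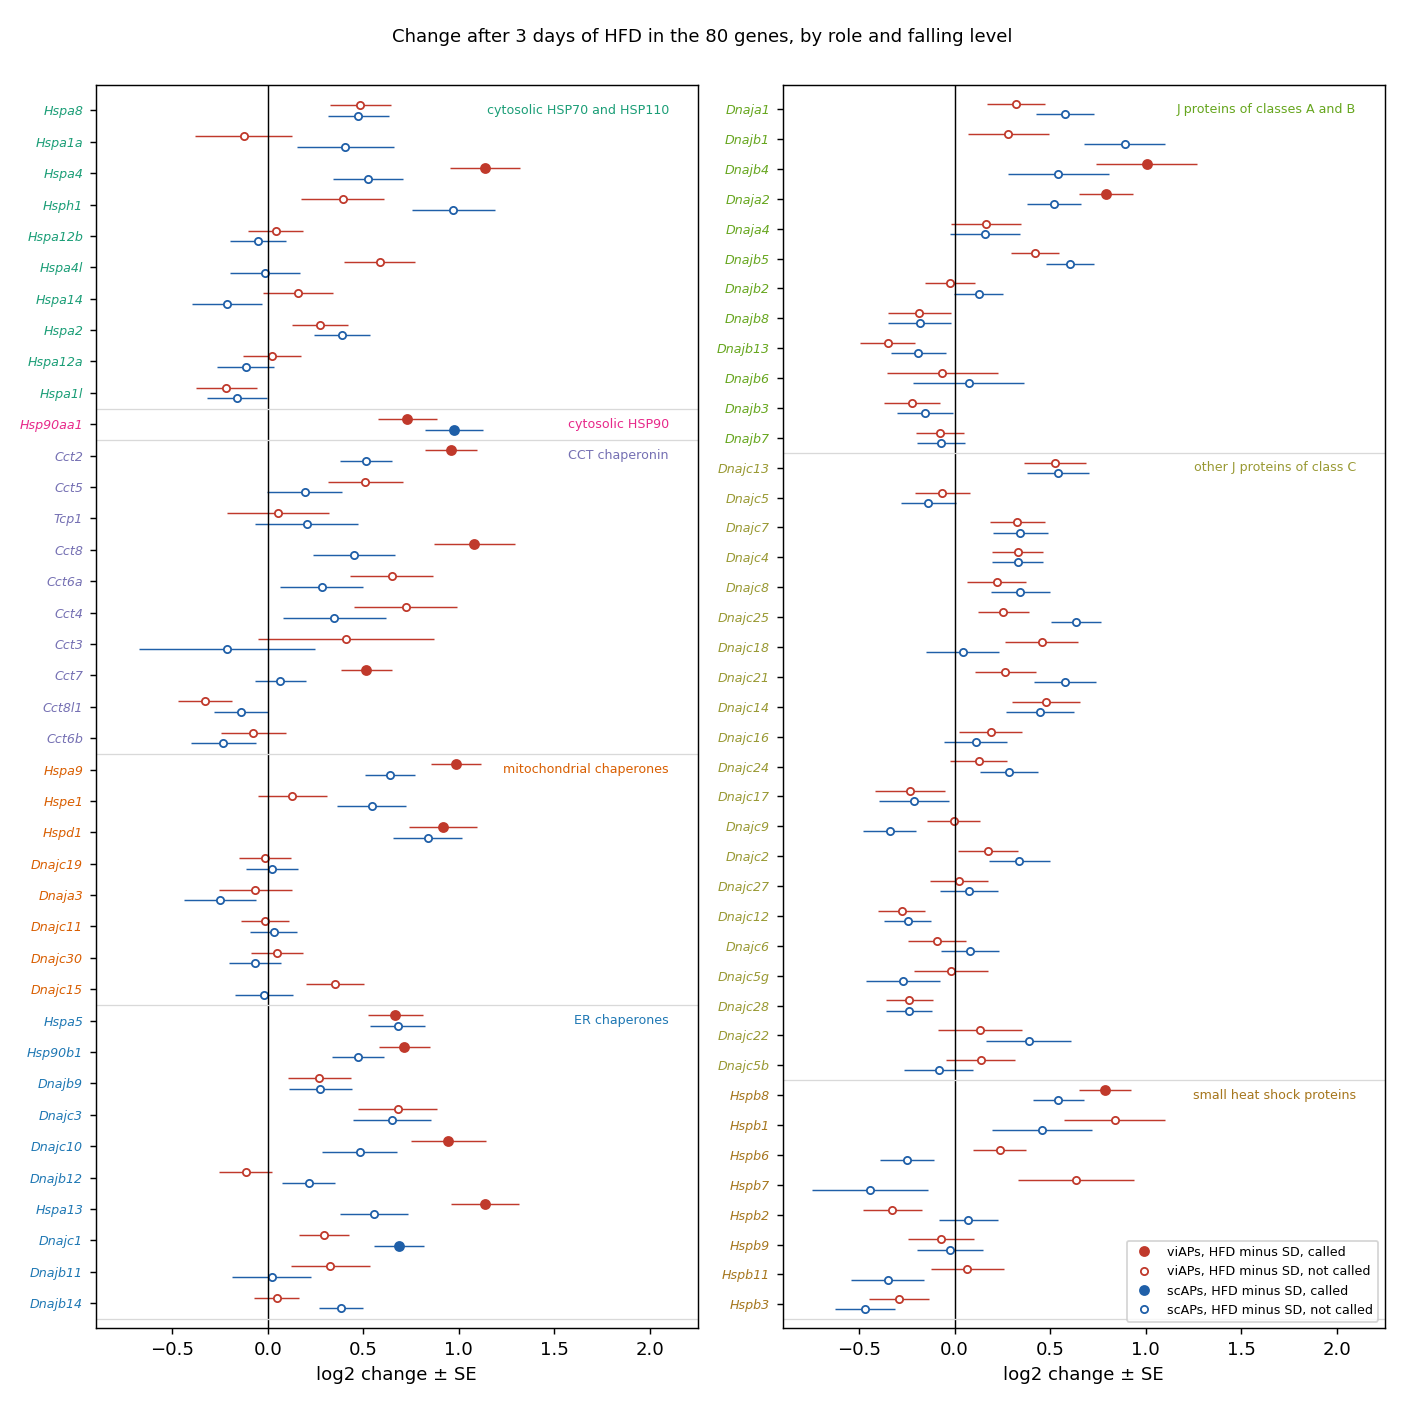
Log2 change between HFD and SD with its standard error (limma, 2 arrays a group) for all 80 genes, ordered by role and within a role by falling mean level, in viAPs (red, upper point) and scAPs (blue, lower point). Filled points passed an adjusted p under 0.05: 14 in viAPs and 2 in scAPs, all to the right of 0.

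The cytosolic HSP70 and HSP110 group had 10 members, of which 1 rose in viAPs and 0 in scAPs. Hspa4, an HSP110 that acts as exchange factor for HSP70, had levels of 9.40 and 9.26 in HFD viAPs, against 8.44 and 7.94 in SD viAPs, and of 9.16 and 8.88 in HFD scAPs, against 8.50 and 8.48 in SD scAPs. The groups did not overlap in either depot. It rose by 1.14 in viAPs (SE 0.18, n = 2 each, limma adjusted p = 0.0111), and the change in scAPs was 0.53 (SE 0.18, adjusted p = 0.201). Without SD viAP replicate 4 the viAP change was 0.89 (adjusted p = 0.0608). Hspa8, the HSP70 that cells make at all times, stood at 12.62 and 12.59 in HFD viAPs, against 12.08 and 12.16 in SD viAPs, and at 12.74 and 12.79 in HFD scAPs, against 12.51 and 12.07 in SD scAPs. With all probe sets tested, its changes of 0.48 and 0.47 passed only as the mean of both depots (0.48, SE 0.11, adjusted p = 0.0234). Within the methods' filter Hspa8 passed in viAPs as well (limma adjusted p = 0.0492).

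Hspa1a, the classical inducible HSP70, had 10.52 and 9.86 in HFD viAPs, against 10.37 and 10.25 in SD viAPs, so that the HFD pools lay on both sides of the SD pools. In HFD scAPs it had 10.53 and 10.60, against 10.48 and 9.83 in SD scAPs. The changes were -0.13 (SE 0.25, adjusted p = 0.764) and 0.41 (SE 0.25, adjusted p = 0.467). A probe set shared with its twin gene Hspa1b, which has none of its own, changed by 0.24 and 0.89 and was not tested. Hsph1, the inducible HSP110 whose heat shock element is printed above, had 8.63 and 7.97 in HFD viAPs, against 7.97 and 7.85 in SD viAPs, and 9.29 and 9.16 in HFD scAPs, against 8.43 and 8.07 in SD scAPs. Its change was 0.39 in viAPs (SE 0.22, adjusted p = 0.263) and 0.97 in scAPs (SE 0.22, adjusted p = 0.0713). Dnajb1, the J protein that partners inducible HSP70, had 10.15 and 10.10 in HFD viAPs, between the SD viAP pools at 9.49 and 10.19. In HFD scAPs it had 10.93 and 10.86, above the 9.90 and 10.11 of SD scAPs. The change was 0.28 in viAPs (SE 0.21, adjusted p = 0.406) and 0.89 in scAPs (SE 0.21, adjusted p = 0.0799). Without SD viAP replicate 4, the array at 10.19, the viAP change was 0.63 (adjusted p = 0.0871).

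Dnaja1, another J protein of HSP70, had 11.38 and 11.24 in HFD viAPs, against 11.10 and 10.88 in SD viAPs, and 11.71 and 11.70 in HFD scAPs, against 11.28 and 10.97 in SD scAPs. It passed only as the mean of both depots (0.45, SE 0.11, adjusted p = 0.0243). A second, dimmer probe set of Dnaja1 changed by 0.10 in viAPs and by 0.10 in scAPs (limma adjusted p = 0.826 and 0.889). A probe set shared with Mir207 changed by -0.475 in viAPs and by -0.315 in scAPs and was not tested. The rise of Dnaja1 thus rests on the brighter probe set. The endothelial markers stood higher in HFD scAPs, as given above. Hspa12b, an HSP70 relative known from endothelial cells, had 7.21 and 7.54 in HFD scAPs, against 7.48 and 7.38 in SD scAPs, so that the groups overlapped. This gene was chosen after its values were seen, and the part of endothelial cells in the scAP values was not tested.

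Hsp90aa1, the inducible cytosolic HSP90, was the only member called in both depots with all probe sets tested. Within the methods' filter Hspa5, Hspa9 and Hspd1 were called in both as well. It had 11.97 and 11.73 in HFD viAPs, against 10.96 and 11.28 in SD viAPs, and 12.36 and 12.36 in HFD scAPs, against 11.44 and 11.33 in SD scAPs. The rise was 0.73 in viAPs (SE 0.15, adjusted p = 0.0237) and 0.98 in scAPs (SE 0.15, adjusted p = 0.0317). Its 3 probe sets changed by 0.73, 0.60 and 0.21 in viAPs and by 0.98, 0.93 and 0.82 in scAPs. The smallest viAP change, of 0.21, was not called (adjusted p = 0.421), and since the annotation does not say which copy of a sequence a probe set reads, the level of this gene is uncertain. The partner gene Hsp90ab1 had no probe set under the rule.

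**Figure D3:**
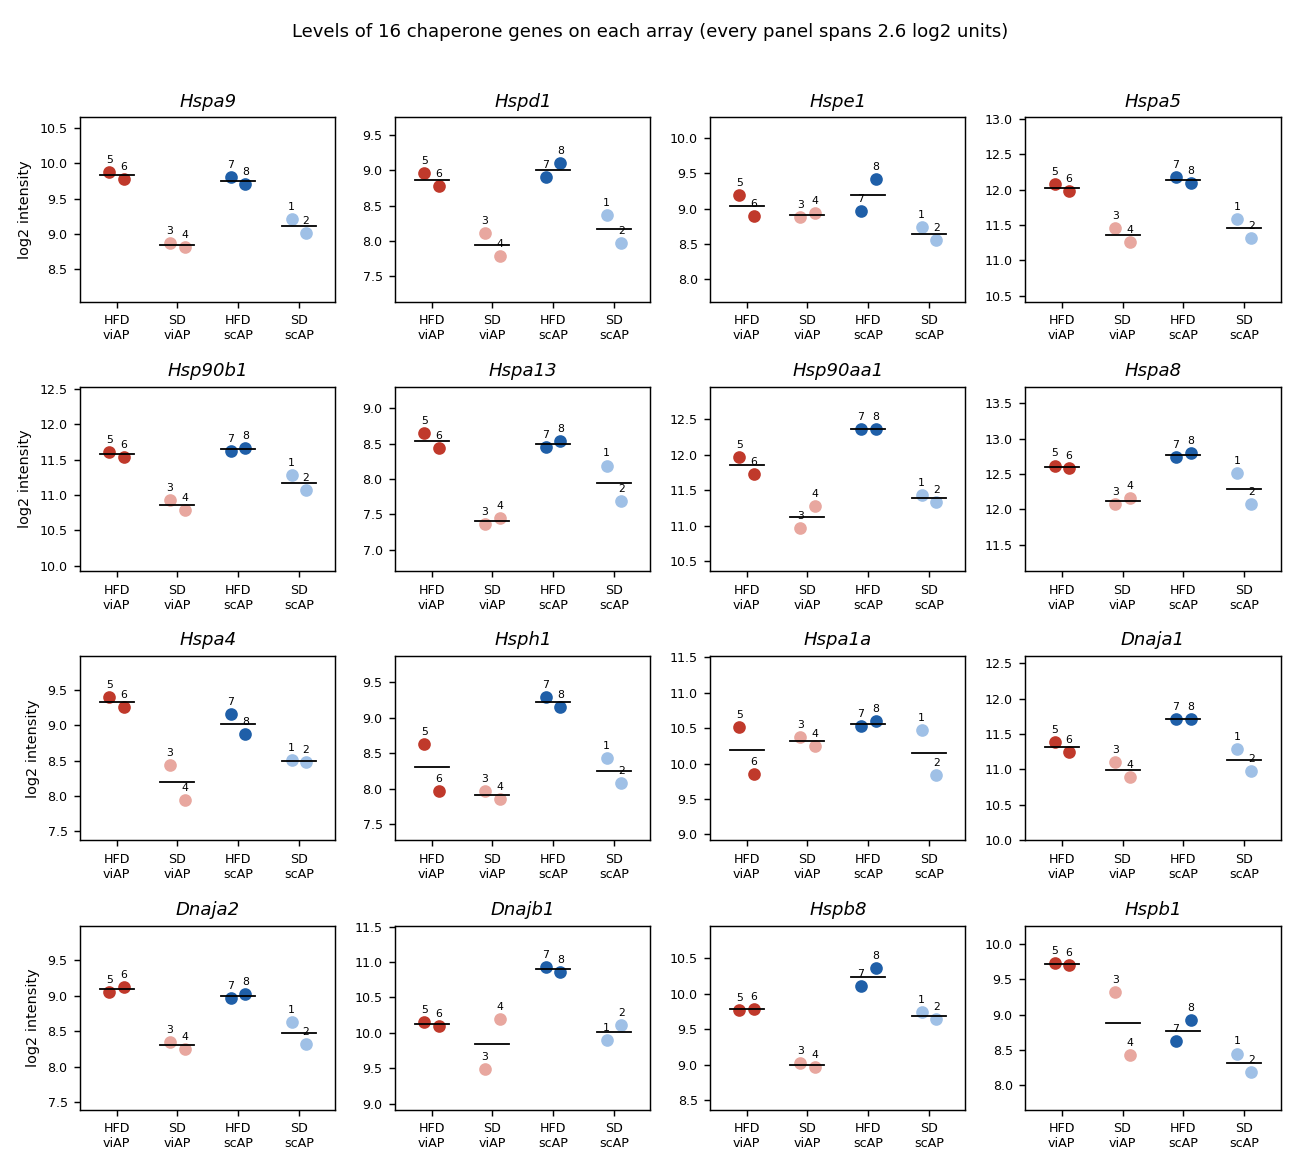
Log2 intensity of 16 chaperone genes on each array, with HFD left of SD in viAPs (red) and scAPs (blue). Numbers are the arrays' replicate numbers, black lines are group means and every panel spans 2.6 log2 units. In Hspa9, Hspa5 and Hspb8 the pools of a group lie close together and HFD lies above SD in both depots, whereas in Hsph1 and Dnajb1 the HFD scAP arrays stand above all others.

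The 10 CCT genes comprise the 8 subunits of the ring and the dim relatives Cct6b and Cct8l1. In viAPs 3 rose and in scAPs 0. Cct2 had 10.17 and 10.13 in HFD viAPs, against 9.32 and 9.06 in SD viAPs, and 9.87 and 9.85 in HFD scAPs, against 9.42 and 9.27 in SD scAPs. Every HFD array was above every SD array. It rose by 0.96 in viAPs (SE 0.14, adjusted p = 0.00806) and its change in scAPs was 0.52 (SE 0.14, adjusted p = 0.103). Cct8 had 8.99 and 8.85 in HFD viAPs, against 8.15 and 7.52 in SD viAPs, and 8.86 and 8.91 in HFD scAPs, against 8.62 and 8.25 in SD scAPs. It rose by 1.08 in viAPs (SE 0.21, adjusted p = 0.0201), which was 0.77 without SD viAP replicate 4 (adjusted p = 0.0921). Cct7 rose by 0.52 in viAPs (SE 0.14, adjusted p = 0.0462), where it had 7.96 and 7.86 on HFD, against 7.38 and 7.41 on SD. In scAPs it changed by 0.07, with 7.79 and 8.06 on HFD and 7.86 and 7.85 on SD.

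The other 5 subunits were not called in either depot. Their viAP changes were 0.72 for Cct4, 0.65 for Cct6a, 0.51 for Cct5, 0.41 for Cct3 and 0.05 for Tcp1. They were, without SD viAP replicate 4, 0.47 for Cct4, 0.42 for Cct6a, 0.68 for Cct5, -0.35 for Cct3 and -0.26 for Tcp1. Since all 8 subunits sit in the same ring, their values were also compared pool by pool. The 2 HFD pools differed little: over the 8 subunits the median absolute difference between the pools was 0.09 in HFD viAPs and 0.11 in HFD scAPs. Between the SD pools it was 0.49 in viAPs and 0.51 in scAPs. SD scAP replicate 1 exceeded replicate 2 for 8 of 8 subunits, by 0.02 for Cct7 to 1.00 for Cct3, and SD viAP replicate 3 exceeded replicate 4 for 6 of 8, by as much as 1.52 for Cct3. The subunits averaged 8.92 and 8.83 in HFD viAPs, against 8.49 and 8.03 in SD viAPs, and 8.71 and 8.87 in HFD scAPs, against 8.81 and 8.30 in SD scAPs. In scAPs the 2 HFD averages thus lay on both sides of that of SD replicate 1. Cct3 had 8.65 and 8.39 in HFD viAPs, against 8.87 and 7.35 in SD viAPs, so that the HFD pools lay between the SD pools. Of the 14 listed prefoldin and other CCT partner genes 0 were called in either depot, with median changes of 0.25 in viAPs and 0.07 in scAPs.

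**Figure D4:**
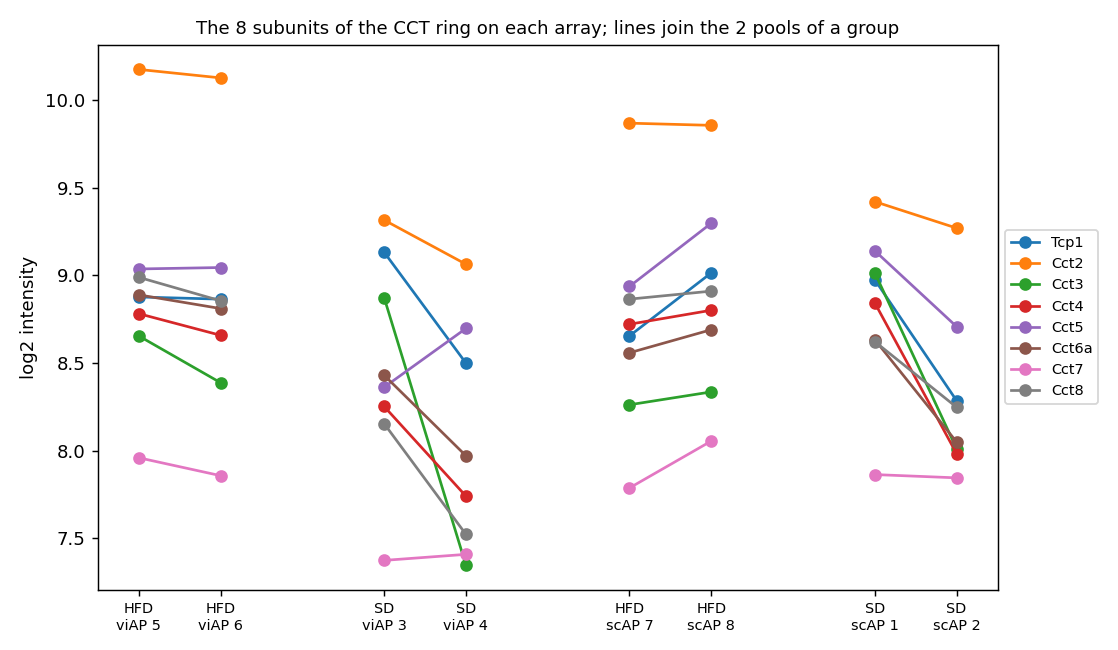
Log2 intensity of the 8 CCT ring subunits (colours) on each array, with a line joining the 2 pools of a group and HFD left of SD in each depot. The HFD pools differ by a median of 0.09 in viAPs and 0.11 in scAPs, the SD pools by 0.49 and 0.51, with Cct3 the widest.

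The spread between SD pools was not confined to CCT. Of the 44 members above a level of 7, 42 were higher on SD scAP replicate 1 than on replicate 2 (95.5%), against 74.6% of all such probe sets, with a median difference of 0.27, against 0.19. In SD viAPs 28 of 44 were higher on replicate 3 than on replicate 4 (63.6%, against 53.6%). For the HFD pools it was 33 of 44 on viAP replicate 5 (75%, against 68.3%) and 13 of 44 on scAP replicate 7 (29.5%, against 40.7%).

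Of the 8 mitochondrial genes 2 rose in viAPs and 0 in scAPs. Hspa9, the mitochondrial HSP70 that also pulls proteins in through the import channel, had 9.88 and 9.77 in HFD viAPs, against 8.87 and 8.81 in SD viAPs, and 9.81 and 9.70 in HFD scAPs, against 9.21 and 9.01 in SD scAPs. It rose by 0.99 in viAPs (SE 0.13, adjusted p = 0.00681, and 0.0521 without SD viAP replicate 4), and the change in scAPs was 0.64 (SE 0.13, adjusted p = 0.0604). Hspd1 had 8.96 and 8.77 in HFD viAPs, against 8.11 and 7.79 in SD viAPs, and 8.91 and 9.10 in HFD scAPs, against 8.36 and 7.97 in SD scAPs. It rose by 0.92 in viAPs (SE 0.18, adjusted p = 0.0196) and its change in scAPs was 0.84 (SE 0.18, adjusted p = 0.0658). Its second probe set changed by 1.69 in viAPs (adjusted p = 0.00485) and by 0.75 in scAPs, with levels of 8.13 and 7.92 in HFD viAPs, against 6.13 and 6.54 in SD viAPs. As for Hsp90aa1, the annotation does not say which copy of a sequence a probe set reads, so the size of the Hspd1 change is uncertain.

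Hspe1 shares the printed promoter with Hspd1. It had 9.20 and 8.89 in HFD viAPs, against 8.89 and 8.94 in SD viAPs, and 8.97 and 9.41 in HFD scAPs, against 8.73 and 8.56 in SD scAPs. Its changes of 0.13 (SE 0.18, 95% interval -0.28 to 0.54) and 0.54 (SE 0.18) did not pass in either depot (adjusted p = 0.658 and 0.177). A second probe set gave 0.09 in viAPs and 0.54 in scAPs. The mitochondrial J proteins Dnajc19, Dnaja3, Dnajc11, Dnajc30 and Dnajc15 had changes of -0.06 to 0.35 in viAPs and -0.25 to 0.03 in scAPs, and 0 were called. Of 10 further genes for mitochondrial folding and proteolysis 0 were called in either depot.

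The ER held the most called members in viAPs (4 of 10) and as the mean of both depots (6 of 10), and 1 in scAPs. Of these 10 genes 9 lay above a level of 7. Of all probe sets above that level, 21.2% rose in viAPs, 2.76% in scAPs and 30.6% as the mean of both depots. Hspa5 (BiP), the HSP70 of the ER and a gauge of the unfolded protein response, had 12.08 and 11.98 in HFD viAPs, against 11.46 and 11.26 in SD viAPs, and 12.18 and 12.09 in HFD scAPs, against 11.58 and 11.32 in SD scAPs. Every HFD array was above every SD array. It rose by 0.67 in viAPs (SE 0.14, adjusted p = 0.026), and the change of 0.68 in scAPs missed the threshold (SE 0.14, adjusted p = 0.0644). Hsp90b1 (GRP94), the ER HSP90, had 11.61 and 11.54 in HFD viAPs, against 10.94 and 10.78 in SD viAPs, and 11.63 and 11.67 in HFD scAPs, against 11.28 and 11.07 in SD scAPs. It rose by 0.72 in viAPs (SE 0.13, adjusted p = 0.0169). Dnajc3, an ER J protein and the third gene with the ER stress response element, had 9.72 and 9.58 in HFD viAPs, against 8.86 and 9.07 in SD viAPs, and 9.60 and 9.72 in HFD scAPs, against 9.33 and 8.69 in SD scAPs. Its change of 0.68 in viAPs missed the threshold (SE 0.20, adjusted p = 0.0703), and the mean of both depots passed (0.66, SE 0.14, adjusted p = 0.0178). All 3 of these genes were among the 30 members (37.5%, against 14.9% of all probe sets) whose HFD pools lay above the SD pools in both depots.

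Hspa13, an HSP70 relative of microsomes, had, with Hspa4, the largest viAP change among the members. It had 8.64 and 8.43 in HFD viAPs, against 7.36 and 7.44 in SD viAPs, and 8.45 and 8.54 in HFD scAPs, against 8.19 and 7.69 in SD scAPs. It rose by 1.14 in viAPs (SE 0.18, adjusted p = 0.0102), and its change in scAPs was 0.56 (SE 0.18, adjusted p = 0.165). Dnajc10, a J protein that also reduces disulfide bonds, rose by 0.95 in viAPs (SE 0.20, adjusted p = 0.0227), with 9.29 and 9.22 on HFD, against 8.41 and 8.21 on SD. Dnajc1, a J protein of the ER membrane, rose in scAPs by 0.69 (SE 0.13, adjusted p = 0.0494), with 7.85 and 8.03 on HFD, against 7.29 and 7.21 on SD. In viAPs it had 8.11 and 7.99 on HFD, against 7.79 and 7.71 on SD, a change of 0.29. Dnajb11 and Dnajb9, J proteins of the ER lumen that serve Hspa5, had viAP changes of 0.33 and 0.27 and were not called (0.21 and 0.46 without SD viAP replicate 4). Of the 13 measured ER folding partners outside the families 5 rose in viAPs (P4hb, Pdia6, Hyou1, Creld2 and Sec63) and 0 in scAPs, and the HFD arrays lay above the SD arrays for 12 of 13 in viAPs and for 8 of 13 in scAPs, against 28.9% and 21.7% of all probe sets. Among them Hyou1, the ER relative of HSP110, rose by 0.83 in viAPs (adjusted p = 0.0143). The 13 partners averaged 9.02 to 9.63 on the arrays, so the shares of all probe sets just given are not of like level. Their median changes were 0.46 in viAPs and 0.19 in scAPs, against 0.43 and 0.27 for all probe sets at levels of 9 to 10.

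The cytosolic J proteins of classes A and B had 2 called members of 12 in viAPs and 0 in scAPs. Dnaja2 had 9.06 and 9.13 in HFD viAPs, against 8.35 and 8.25 in SD viAPs, and 8.97 and 9.03 in HFD scAPs, against 8.63 and 8.32 in SD scAPs. It rose by 0.79 in viAPs (SE 0.14, adjusted p = 0.0146). Dnajb4 rose by 1.00 in viAPs (SE 0.26, adjusted p = 0.0471), with 9.66 and 9.61 on HFD, against 8.98 and 8.28 on SD, and this was 0.65 without SD viAP replicate 4 (adjusted p = 0.227). Dnajb5 passed as the mean of both depots (0.51, SE 0.09, adjusted p = 0.008), with 6.85 and 6.98 in HFD viAPs, against 6.43 and 6.55 in SD viAPs, and 6.92 and 6.97 in HFD scAPs, against 6.32 and 6.36 in SD scAPs. The value of Dnajb6, one of the 4 genes with a full heat shock element, is uncertain. Its only probe set of its own was dim and changed by -0.06 in viAPs (-0.48 without SD viAP replicate 4), while 4 probe sets annotated to it and Gm4247 changed by 0.60 to 0.97 in viAPs and by 0.07 to 0.25 in scAPs.

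Of the 21 other J proteins of class C, which differ widely in function, 0 were called in either depot alone and 5 as the mean of both (Dnajc13, Dnajc14, Dnajc21, Dnajc25 and Dnajc4). Changes ran from -0.28 to 0.52 in viAPs and from -0.34 to 0.64 in scAPs. The endosomal Dnajc13 had 9.25 and 9.18 in HFD viAPs, against 8.73 and 8.65 in SD viAPs, and 9.29 and 9.34 in HFD scAPs, against 8.99 and 8.55 in SD scAPs. This was the brightest of its 15 probe sets with 1 symbol, with changes of 0.52 in viAPs and 0.54 in scAPs. Its other probe sets changed by -0.10 to 0.89 in viAPs and by -0.27 to 0.35 in scAPs, so the size of its change is uncertain. Dnajc5, the vesicle protein CSP, had 8.37 and 8.11 in HFD viAPs, against 8.28 and 8.34 in SD viAPs, and changes of -0.07 in viAPs and -0.14 in scAPs.

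Of the 8 small heat shock proteins 1 rose in viAPs and 0 in scAPs. Hspb8, which works with the co-chaperone Bag3 in clearing misfolded proteins, had 9.77 and 9.78 in HFD viAPs, against 9.02 and 8.96 in SD viAPs, and 10.11 and 10.36 in HFD scAPs, against 9.74 and 9.64 in SD scAPs. It rose by 0.79 in viAPs (SE 0.13, adjusted p = 0.0128), and its change in scAPs was 0.54 (SE 0.13, adjusted p = 0.0877). Bag3 itself had 10.85 and 10.91 in HFD viAPs, against 9.91 and 9.93 in SD viAPs, and 10.92 and 10.71 in HFD scAPs, against 9.98 and 10.08 in SD scAPs. It was the only one of 22 listed co-chaperones called in both depots (0.96, adjusted p = 0.00697, and 0.79, adjusted p = 0.0356). The HSP90 co-chaperones Ptges3 and Ahsa1 rose in viAPs (1.15, adjusted p = 0.00485, and 0.56, adjusted p = 0.0481) and changed by 0.54 and 0.56 in scAPs without passing there.

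Hspb1 (HSP27 in humans) had 9.73 and 9.70 in HFD viAPs, against 9.33 and 8.43 in SD viAPs, and 8.63 and 8.92 in HFD scAPs, against 8.45 and 8.18 in SD scAPs. Its viAP change of 0.84 missed the threshold (SE 0.26, adjusted p = 0.079) and was 0.39 without SD viAP replicate 4. Of the relatives that carry the crystallin name, Cryab rose by 1.05 in viAPs (adjusted p = 0.00834), with 9.71 and 9.63 on HFD, against 8.74 and 8.49 on SD. Hspb3, whose probe set was dim, was the 1 member that fell as the mean of both depots (-0.38, SE 0.11, adjusted p = 0.0485), and this was not called without SD viAP replicate 4.

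No member differed between the depots by the test. The difference of the diet changes was called for 0 of 80 (limma, smallest adjusted p = 0.637, 7 at an unadjusted p under 0.05, which was 8.75%, against 7.34% of all probe sets), against 1 of all 21789 probe sets (0.00459%). For Hsph1 it was -0.58 (95% interval -1.28 to 0.12), for Dnajb1 -0.61 (-1.29 to 0.07), for Hspa4 0.61 (0.02 to 1.20) and for Hspa5 -0.01 (-0.48 to 0.45), each viAP minus scAP. The difference became -0.64 for Hsph1, -0.26 for Dnajb1, 0.37 for Hspa4 and -0.11 for Hspa5 without SD viAP replicate 4. Between viAPs and scAPs on SD 0 members were called (limma, 11 at an unadjusted p under 0.05, which was 13.8%, against 11.6% of all probe sets), and 0 of all probe sets. The members called were again 0 without SD viAP replicate 4, but 109 of all probe sets then stood higher and 94 stood lower in the remaining viAP array. On HFD 0 members were called (10 at an unadjusted p under 0.05, which was 12.5%, against 10.5% of all probe sets), against 1.07% of all probe sets higher and 0.436% lower in viAPs.

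The 4 members with the widest depot difference on HFD were Hspb7, Hspb1, Hsph1 and Dnajb1, and none passed with all arrays. Hspb7, a heart and muscle protein, had 7.17 and 6.86 in HFD viAPs, against 5.78 and 5.29 in HFD scAPs, a difference of 1.48 (SE 0.30, adjusted p = 0.0575). In SD viAPs it had 6.87 on replicate 3 and 5.88 on replicate 4. Hspb1 differed by 0.94 (SE 0.26, adjusted p = 0.163), Dnajb1 by -0.77 (SE 0.21, adjusted p = 0.151) and Hsph1 by -0.93 (SE 0.22, adjusted p = 0.0931), all without overlap of the arrays. Without SD viAP replicate 4, which enters this comparison only through the shared estimate of the spread, Hspb7 (adjusted p = 0.0184), Hspb1 (0.0312) and Dnajb1 (0.0287) passed, as did 1.81% of all probe sets higher and 0.95% lower in viAPs. The 8 small heat shock proteins as a group had a median difference of 0.11 on HFD, and Hspb8 was lower in viAPs by the levels given above.

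Other lists bear on the isolation of the cells. Of 20 immediate early genes known to respond to tissue digestion 6 rose in viAPs and 1 in scAPs (Klf6, by 1.27). Of all probe sets above a level of 7, 21.2% rose in viAPs and 2.76% in scAPs. In viAPs both HFD arrays lay above both SD arrays for 11 of the 20 and below both for 7. In scAPs this was so for 11 and 2. The list averaged 11.01 and 10.96 in HFD viAPs, against 10.82 and 10.70 in SD viAPs, and 11.06 and 11.00 in HFD scAPs, against 10.85 and 10.74 in SD scAPs. Its members Fos and Jun were at 12.16 to 12.78 on all arrays. The heat shock transcription factor list had 6 measured genes, of which 0 were called in either depot. Hsf1 itself was not among them, since it had no probe set with exactly 1 symbol. The part of digestion in the chaperone values was not tested.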

How the data were processed

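For 8 Affymetrix Mouse Gene 1.0 ST arrays the authors deposited 1 linear intensity per probe set. RMA with quantile normalization had been run, in Affymetrix Expression Console 1.1 by the submitters' notes and in R by the methods. Log2 of the deposited intensities was used as it stands, and every change given is a difference of log2 levels. The number of arrays limits the precision.

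The labels gave the groups. The annotation gives 21789 probe sets 1 symbol, 1621 several and 12146 none, and only the first kind was tested. All 80 genes matched RefSeq by Entrez ID. A model with a mean for each group was fitted to the 8 arrays together (limma 3.58.1, functions lmFit and eBayes, R 4.3.3). It had 4 residual degrees of freedom and 4.58 from the prior. Benjamini-Hochberg adjustment ran over the whole tested table, and a gene was called, and is said to have risen or fallen, at an adjusted p under 0.05. The methods' filter (3076 probe sets that exceed 7 on 3 or more arrays and fall in the top tercile by mean absolute deviation) was an alternative, since it selects variable probe sets. Nothing says that pools were replicated independently beyond the mice they hold, so p-values measure the spread between these pools.

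The members, the lists and the rule for the genes named were chosen with earlier results of these data known. That rule took the CCT subunits and main HSP60, HSP70, HSP90 and J protein genes whatever their values, the 10 called members with the largest increase and decrease per comparison with and without the filter, the 5 with the highest level and the 5 with the largest range. Dnajb5, Dnajb6, Dnajc3, Dnajc5, Dnajc13, Dnajb9, Dnajb11 and Hspa12b were chosen after their values were seen. The procedure was tested on simulated data. Figures were drawn with matplotlib 3.10.9.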

Additional observations from a re-analysis of the deposited data

How the results depend on the processing

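Of 80 genes 14 were called in viAPs, and this count was 5 after a second quantile normalization, 21 with each array centred on its median, and 0 without moderation of the variances or with only the 4 arrays compared. The share of all probe sets that rose was 8.45%, and under these settings 3.82%, 14.4%, 0.349% and 0%. With 1 array left out the members called in viAPs numbered 0 to 16, with 7 without either HFD scAP array, which enter only through the spread. The 2 calls in scAPs became 8 with the methods' filter, 8 with its level filter alone, 1 after quantile normalization, 9 with centring, 6 on log2 of the value plus 16, 1 with an intensity trend in the prior, 0 without moderation and 0 with only the arrays compared, and 0 whichever array was left out. Of all probe sets 1.06% rose there, and under these settings 20%, 8.19%, 0.363%, 3.47%, 1.96%, 0.886%, 0.0734% and 0%, with at most 0.151% when an array was left out. The 27 calls for the mean of both depots became 14 after quantile normalization (7.01% of all probe sets rose and 2.94% fell), 10 without moderation (3.34% rose) and 9 to 30 with 1 array left out (16 without SD viAP replicate 4, 9 without HFD viAP replicate 5). The 0 calls between depots on HFD became 1 after quantile normalization (Hsph1, lower in viAPs), 1 with centring (Hspb7, higher) and 0 to 3 with 1 array left out. The median change over the members was 0.23 in viAPs, 0.11 after quantile normalization, 0.37 with centring and 0.17 to 0.32 with 1 array left out. In scAPs it was 0.20, 0.30 with centring and 0.08 to 0.33. Centring moved the median of all probe sets in viAPs as well, to 0.09, against -0.05. No called direction was reversed. The causes of these shifts were not tested. With 2 pools a group, an uncalled gene is not shown to be unchanged, and dim probe sets below a log2 level of 7 limit 36 of the 80 genes. No paired analysis was possible because no array number in the labels occurs in more than 1 group.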
